A study of Mus musculus with 11 samples.

Results

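Notch and proneural genes of the mouse retina were followed in early postnatal life in 9 genes, Notch1, Dll1, Dll3, Hes5, Hey1, Hes6, Neurog2, Olig2 and Sox2. They were chosen by name, as 9 of the 47069 genes in the count tables, and all 9 passed the filter on low counts that left 18188 genes for testing. RNA-seq counts came from 11 retinal libraries of C57BL/6 mice, with 2 wild-type and 3 Brn3b-Kir2.1 libraries at postnatal day 4 (P4) and 3 of each genotype at P8. The Kir2.1 mice carry a transgene for human Kir2.1, a potassium channel of the inward rectifier family, joined to the yellow fluorescent protein eYFP. A CAG promoter drives it once Brn3b-cre, which is active in ganglion cells, has removed a floxed STOP cassette, so that the cells meant to make the channel are a subset of those whose RNA was read. By its title, the study asked how correlated retinal activity around birth bears on the wiring of visual axons.

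The labels differ on 3 points. The later age is P8 in the age field and P11 in the extraction protocol. The controls are wild type in the genotype field and Brn3b-cre mice in the protocol. The material is ganglion cells by its source name and retina by its tissue field. The protocol describes dissociation of whole retinas without a sorting step, and the field values for age and genotype are used below. No label says whether replicates came from separate animals, so the p-values measure the spread between these libraries, which may be technical.

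Gene counts ranged from 9362215 to 12478838 per library. Markers of several retinal cell types were read in every library. Values are TMM-scaled CPM, the count of a gene as a share of its library after edgeR's library scaling. The 12 rod markers summed to between 284 and 7911 CPM, 10 Mueller glia markers to between 1180 and 2026 CPM, and 10 ganglion cell markers to between 213 and 1262 CPM. None of the marker genes of 12 cell types was at 0 in all libraries. Some libraries stood apart in single marker lists. The ganglion cell sum was 213 CPM in Kir2.1 P4 replicate 2 and 595 to 1262 CPM in the other P4 libraries. The 4 starburst amacrine cell markers summed to 26.0 CPM in wild-type P8 replicate 3, against 195 and 175 CPM in replicates 1 and 2. In dividing-cell markers, rod markers or read assignment, 3 libraries stood apart, wild-type P4 replicate 2, wild-type P8 replicate 1 and Kir2.1 P8 replicate 2. The 12 markers of dividing cells summed to 1040 CPM in wild-type P4 replicate 2 and to between 2361 and 2894 CPM in the other 4 P4 libraries. Rod markers summed to 1403 CPM in that library, against 284 to 886 CPM in the other P4 libraries. Among the P8 libraries, wild-type replicate 1 had a rod sum of 927 CPM and the remaining 5 had 3638 to 7911 CPM. Kir2.1 P8 replicate 2 had the fewest gene counts, 31325 genes with a count against 22609 to 24591 in the other 10 libraries, and 69.4% of its uniquely mapped reads assigned to no gene feature against 57.0% to 62.4%. The human transgene is not counted under a mouse gene with certainty, so the mouse Kir2.1 gene gave no check of the genotype labels.

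Notch signalling passes between neighbouring cells. A Delta or Jagged ligand on 1 cell binds a Notch receptor on the next, the cleaved receptor joins the DNA-binding protein RBPJ in the nucleus, and the pair switches on Hes and Hey repressors, which hold back proneural genes and keep the cell a progenitor. Proneural factors of the basic helix-loop-helix (bHLH) family bind E-boxes, raise Delta ligands and drive the cell towards a neuron. In the retina this exchange sets how long progenitors go on dividing and when neurons and Mueller glia are made, and in the mouse the last neurons arise after birth.

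Hes5 and Dll1 were chosen for printing, as a repressor that Notch raises and a ligand that proneural factors raise. Shown are the 250 bases before each start site, from RefSeq on build GRCm38.p6 and 5′ to 3′ on the gene's strand, with capitals marking the core of the RBPJ site (TTCCCA, read on either strand) in Hes5 and the E-box in Dll1. The Hes5 stretch is chr4:154960673-154960922 on the plus strand and the Dll1 stretch chr17:15376933-15377182 on the minus strand.
Hes5: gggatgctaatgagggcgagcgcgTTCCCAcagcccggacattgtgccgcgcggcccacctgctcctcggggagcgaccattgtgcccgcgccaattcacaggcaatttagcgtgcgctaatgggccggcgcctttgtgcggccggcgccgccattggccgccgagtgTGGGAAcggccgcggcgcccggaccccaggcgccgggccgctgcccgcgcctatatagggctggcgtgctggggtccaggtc
Dll1: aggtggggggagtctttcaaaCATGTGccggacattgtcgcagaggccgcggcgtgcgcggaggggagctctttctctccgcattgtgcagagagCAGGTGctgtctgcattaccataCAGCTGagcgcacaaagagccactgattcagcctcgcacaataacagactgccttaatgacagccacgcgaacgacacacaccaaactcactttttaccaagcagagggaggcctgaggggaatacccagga
RefSeq promoter windows, each from 250 bases before to 50 bases after a start, were matched for 8 of the 9 genes, as 10 windows. Both strands were searched. TTCCCA was found in 1 of the 8 genes, Hes5, with 2 matches that begin 226 and 82 bases before the start, the second on the other strand. Of all 32851 windows in the table, 25.6% hold TTCCCA. The E-box, CANNTG, was found in 5 of the 8 genes, in 7 of their 10 windows, and in 72.3% of all windows. The Dll1 stretch holds 3, which begin 229, 155 and 132 bases before the start. The window of another Dll1 start, not printed, holds 1. The N-box that Hes repressors bind, CACNAG, was found in 4 of the 8 genes, in 4 of their 10 windows, and in 42.5% of all windows. These are matches of letters, and binding was not measured.

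At P4 the most abundant of the 9 genes per length of exon was Hes5, at 64.3 ± 32.6 CPM per kb (SD, n = 2) in wild-type and 82.6 ± 8.94 (SD, n = 3) in Kir2.1 libraries. Hes6 followed at 48.0 and 60.4 CPM per kb, and Notch1 at 30.9 and 46.0. Sox2, Dll1, Neurog2, Hey1, Dll3 and Olig2 came next in this order in both genotypes, with Olig2 at 2.80 and 3.0 CPM per kb. In the Kir2.1 P4 libraries the ranges of neighbours in the order did not overlap, except those of Hey1 and Dll3. In the wild-type P4 pair only Notch1 and Sox2, and Neurog2 and Hey1, were apart from their neighbour. At P8 Hes6 stood first, at 21.8 ± 11.5 CPM per kb (SD, n = 3) in wild-type and 27.3 ± 1.81 (SD, n = 3) in Kir2.1 libraries, ahead of Hes5 at 19.4 ± 1.92 and 20.5 ± 1.04. Their ranges overlapped in the wild type and were apart in Kir2.1. Neurog2 stood above Dll1 in wild-type P8 libraries, with overlapping ranges, and below it in Kir2.1 P8 libraries, with ranges apart.

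**Figure D1:**
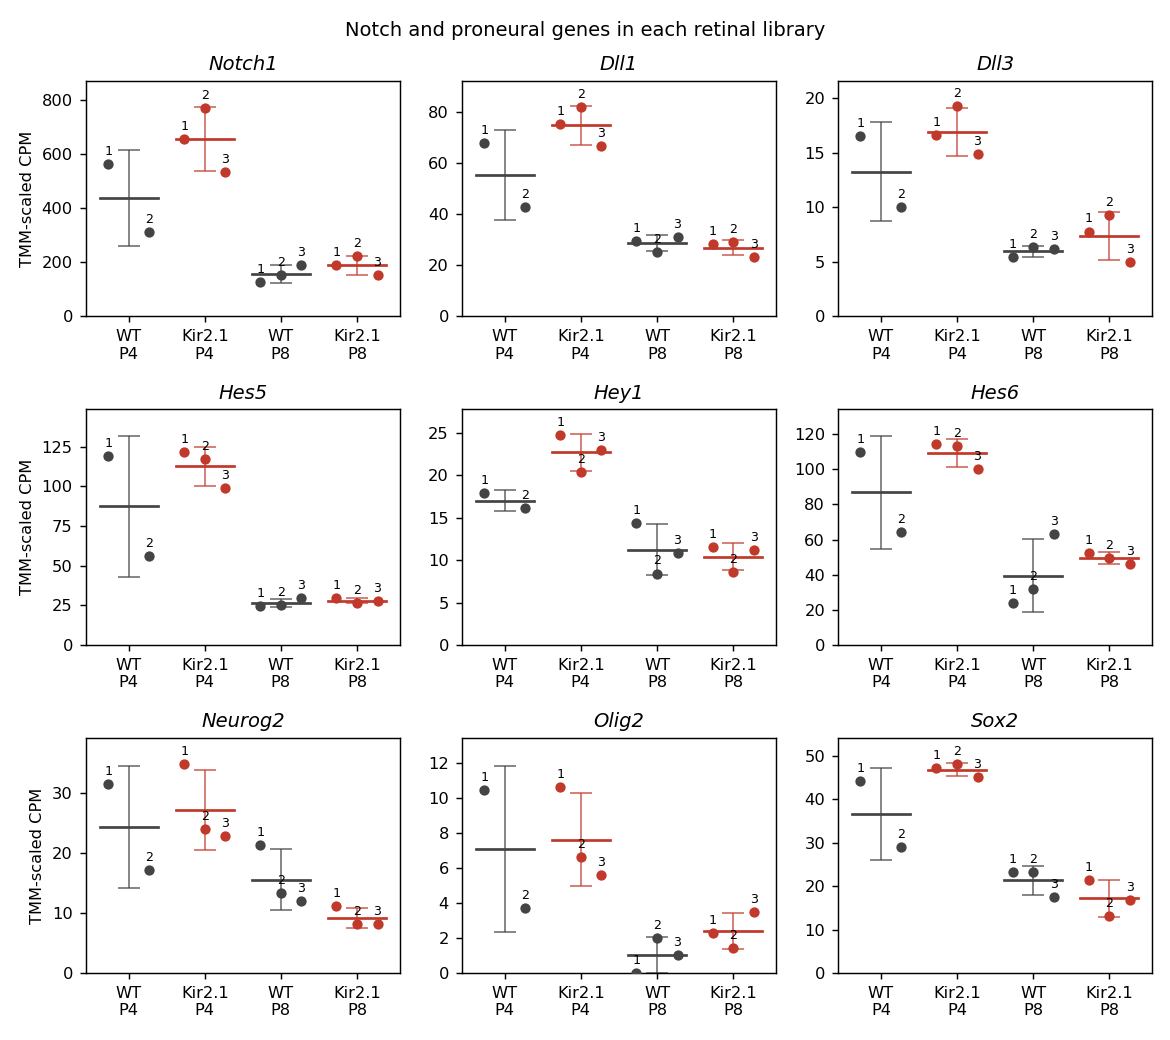
TMM-scaled CPM of the 9 genes in each of the 11 libraries, 1 panel per gene with its own linear axis from 0. Points are libraries with their replicate number, horizontal lines group means and error bars 1 SD (n = 2 for wild-type P4, n = 3 otherwise). In all panels wild-type P4 replicate 2 is the lowest of the 5 P4 libraries, and in all but Neurog2 it lies above every P8 library.

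Notch1 (ENSMUSG00000026923, chromosome 2, 26457903 to 26516663, minus strand, GRCm38) encodes the main Notch receptor of retinal progenitors. Its level was 565 and 314 CPM in the wild-type P4 libraries, 658, 772 and 536 CPM in the Kir2.1 P4 libraries, 128, 152 and 192 CPM in the wild-type P8 libraries and 189.8, 224 and 154 CPM in the Kir2.1 P8 libraries. Every P4 library was above every P8 library. From P4 to P8 Notch1 fell by 1.48 on the log2 scale in the wild type (SE 0.25, edgeR quasi-likelihood adjusted p = 0.00493), to 35.7% of its P4 level. In Kir2.1 it fell by 1.79 (SE 0.23, edgeR adjusted p = 0.000446), to 28.8%. In bulk tissue, fewer cells that express a gene and less RNA per cell cannot be told apart, here or in any result below.

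The fall of Notch1 was part of a pattern that took in most of the 9 genes. In the wild type 4 of the 9 passed the test, all lower at P8 (Hes5, Notch1, Dll1 and Dll3), where 4.39% of all genes tested passed it and 3.58% did so as lower. In Kir2.1, 8 of the 9 passed, all lower and all but Olig2, against 16.7% of all genes and 8.73% as lower. The median log2 fold change of the 9 genes was -1.13 in the wild type and -1.48 in Kir2.1, beside 0.03 and 0.0046 over all genes. All 9 had a negative fold change in both genotypes, a sign shared by 47.4% and 49.6% of all genes. The P8 libraries lay wholly below the P4 libraries of their genotype for 8 of 9 genes in the wild type, all but Neurog2, and for 9 of 9 in Kir2.1, against 16.9% and 18.7% of all genes.

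The number that passed in the wild type turned on the P4 pair. Without wild-type P4 replicate 2 it was 7 genes (Olig2, Hes6, Dll1, Dll3, Notch1, Sox2 and Hes5), without replicate 1 it was Hes5 alone, and with only the 5 wild-type libraries in the fit it was 0. The median log2 fold change of the 9 was -1.46 without replicate 2 and -0.70 without replicate 1. Leaving out wild-type P8 replicate 2 left 2, Notch1 and Hes5. Hes5 was called with any 1 of the 11 libraries left out. Dll3 kept its call without wild-type P4 replicate 2 or without replicate 2 or 3 of Kir2.1 P8, and lost it without any 1 of the others (edgeR adjusted p up to 0.668). In Kir2.1, Hes6 lost its call without Kir2.1 P4 replicate 1 or 2 or without any Kir2.1 P8 library (edgeR adjusted p up to 0.0763), and Olig2 gained one without wild-type P8 replicate 1. Without Kir2.1 P8 replicate 2, 7 of the 9 were called in Kir2.1 and their median was -1.40. The markers of dividing cells moved with the 9 genes: all 12 passed the test as lower at P8 in both genotypes, with median log2 fold changes of -3.28 and -3.31, and their sum was 142 to 188 CPM in the 6 P8 libraries. Ganglion cell markers were also lower at P8, 9 of 10 past the test in the wild type (median -2.56). In Kir2.1, 8 of 10 passed as lower and 1, Isl1, as higher (median -1.57). They summed to 351 to 461 CPM at P8 against 213 to 1262 CPM at P4. Isl1 alone made up 163 to 303 CPM of the P8 sums and 10.6 to 125 CPM of the P4 sums. The part of dividing cells or ganglion cells in the result was not tested. Mueller glia markers, whose cells keep some of these genes active, summed to 1180 to 1846 CPM at P8 and 1377 to 2026 CPM at P4. Of these 10 markers, 1 rose and none fell in the wild type, and 3 rose and 1 fell in Kir2.1.

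**Figure D2:**
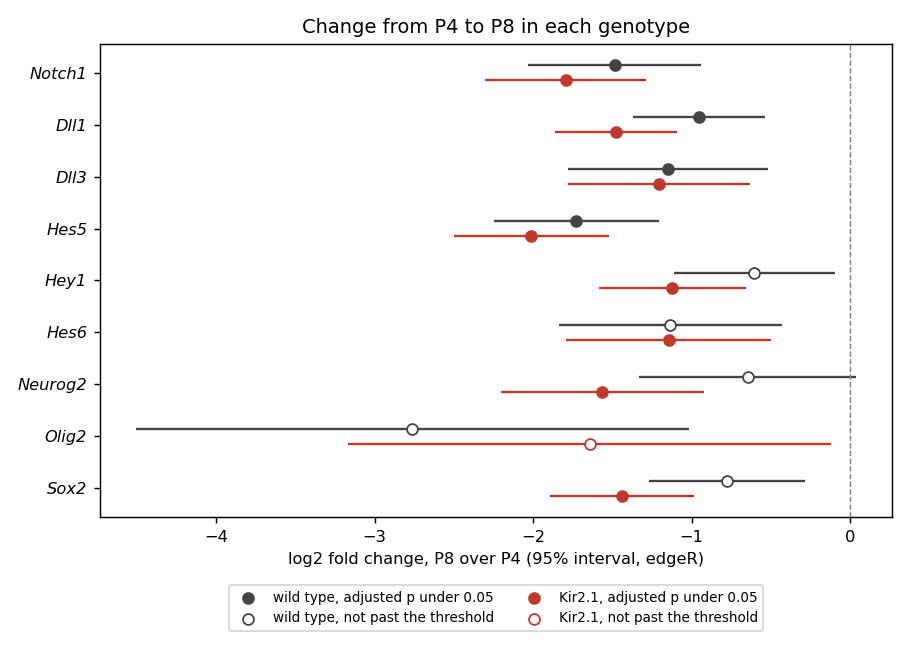
Log2 fold change of each gene from P4 to P8 with its 95% interval from edgeR, in the wild type (grey) and in Kir2.1 (red). Filled points have an adjusted p under 0.05; all 18 points lie below 0, and 4 of the 9 grey and 8 of the 9 red points are filled.

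Of the ligands, Dll1 (ENSMUSG00000014773, chromosome 17, 15367354 to 15376872, minus strand) encodes an activating Delta ligand. Its level was 68.0 and 43.0 CPM in the wild-type P4 libraries, 75.5, 82.1 and 66.8 CPM in the Kir2.1 P4 libraries, 29.7, 25.2 and 31.1 CPM in the wild-type P8 libraries and 28.2, 29.0 and 23.5 CPM in the Kir2.1 P8 libraries. The 6 P8 libraries lay close together and below all 5 P4 libraries. Dll1 fell by 0.95 on the log2 scale in the wild type (SE 0.19, edgeR adjusted p = 0.0138) and by 1.48 in Kir2.1 (SE 0.18, edgeR adjusted p = 0.000268). Without wild-type P4 replicate 1 its wild-type value was -0.59 and lost its call. Dll3 (ENSMUSG00000003436, chromosome 7, 28293553 to 28302238, minus strand) encodes a divergent Delta protein that does not activate Notch on neighbouring cells. It read 16.5 and 10.1 CPM in wild-type P4, 16.6, 19.3 and 14.9 CPM in Kir2.1 P4, 5.41, 6.38 and 6.18 CPM in wild-type P8 and 7.79, 9.29 and 4.999 CPM in Kir2.1 P8 libraries. Here too the ages did not overlap, although the highest Kir2.1 P8 library came within 1 CPM of the lowest wild-type P4 library. Dll3 fell by 1.15 in the wild type (SE 0.29, edgeR adjusted p = 0.0455), just inside the threshold, and by 1.20 in Kir2.1 (SE 0.26, edgeR adjusted p = 0.00885). Its wild-type value without wild-type P4 replicate 1 was -0.75, no longer past the test. Dll1 overlaps A930024N18Rik on the other strand, with 40 to 108 counts per library. The strand setting of the counting is not given in the sources used here, so reads of such partners cannot be told apart. Genes that overlap Notch1 and Hes5 had at most 37 and 8 counts.

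Of the effectors, Hes5 (ENSMUSG00000048001, chromosome 4, 154960923 to 154962371, plus strand) encodes a repressor switched on by Notch, and it had the largest fall in both genotypes among those of the 9 genes past the test. Its level was 119 and 56.2 CPM in the wild-type P4 libraries, 122, 117 and 98.7 CPM in the Kir2.1 P4 libraries, 24.7, 25.1 and 29.4 CPM in the wild-type P8 libraries and 29.5, 26.7 and 27.6 CPM in the Kir2.1 P8 libraries. The 6 P8 libraries spanned under 5 CPM, while the wild-type P4 pair differed more than any other pair of 1 group. Hes5 fell by 1.73 on the log2 scale in the wild type (SE 0.24, edgeR adjusted p = 0.00167), to 30.2% of its P4 level, and by 1.09 without wild-type P4 replicate 1. In Kir2.1 it fell by 2.01 (SE 0.22, edgeR adjusted p = 0.000185), to 24.8%. Hey1 (ENSMUSG00000040289, chromosome 3, 8663359 to 8667256, minus strand) encodes a related repressor. It read 17.9 and 16.2 CPM in wild-type P4, 24.7, 20.4 and 22.9 CPM in Kir2.1 P4, 14.4, 8.42 and 10.8 CPM in wild-type P8 and 11.5, 8.56 and 11.2 CPM in Kir2.1 P8 libraries. The nearest libraries of the 2 ages, wild-type P4 replicate 2 and wild-type P8 replicate 1, were under 2 CPM apart. Hey1 fell by 1.12 in Kir2.1 (SE 0.21, edgeR adjusted p = 0.00418). Its wild-type log2 fold change was -0.60 (SE 0.23, edgeR adjusted p = 0.178).

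Hes6 (ENSMUSG00000067071, chromosome 1, 91411483 to 91414038, minus strand) encodes a Hes relative that counters Hes repressors and favours neuronal differentiation. Its level was 109.6 and 64.0 CPM in the wild-type P4 libraries, 114, 113 and 100.2 CPM in the Kir2.1 P4 libraries, 23.6, 31.7 and 63.1 CPM in the wild-type P8 libraries and 52.5, 49.6 and 46.0 CPM in the Kir2.1 P8 libraries. The wild-type P8 libraries were spread widely, and replicate 3 reached the level of wild-type P4 replicate 2. Hes6 fell by 1.15 on the log2 scale in Kir2.1 (SE 0.30, edgeR adjusted p = 0.0207). The wild-type log2 fold change was -1.13 (SE 0.32, edgeR adjusted p = 0.0733), and without wild-type P8 replicate 3 it was -1.65 (edgeR adjusted p = 0.00213). On leaving out replicate 1 of wild-type P4 it was -0.70. In that order, the 3 wild-type P8 libraries held 927, 3638 and 7911 CPM of rod markers. The part of rods in the Hes6 values was not tested.

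Neurog2 (ENSMUSG00000027967, chromosome 3, 127633135 to 127635631, plus strand) encodes a proneural factor carried by progenitors about to leave the cell cycle. Its level was 31.5 and 17.1 CPM in the wild-type P4 libraries, 34.8, 23.9 and 22.7 CPM in the Kir2.1 P4 libraries, 21.3, 13.3 and 12.04 CPM in the wild-type P8 libraries and 11.1, 8.24 and 8.12 CPM in the Kir2.1 P8 libraries. Wild-type P8 replicate 1 exceeded wild-type P4 replicate 2, and the Kir2.1 P8 libraries were the 3 lowest of all 11. Neurog2 fell by 1.56 on the log2 scale in Kir2.1 (SE 0.29, edgeR adjusted p = 0.00397). Its wild-type value was -0.64 (95% interval -1.33 to 0.04, edgeR adjusted p = 0.289), with -0.14 on leaving out replicate 1 of wild-type P4 and -1.02 on leaving out replicate 2.

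Olig2 (ENSMUSG00000039830, chromosome 16, 91225457 to 91228677, plus strand) encodes a bHLH factor of progenitors near their last division, and elsewhere of the oligodendrocyte lineage. It was the scarcest of the 9 genes, at 10.4 and 3.72 CPM in wild-type P4, 10.6, 6.60 and 5.60 CPM in Kir2.1 P4, 0, 2.04 and 1.06 CPM in wild-type P8 and 2.32, 1.46 and 3.48 CPM in Kir2.1 P8 libraries. All P8 libraries were below all P4 libraries, and the highest P8 library was close to wild-type P4 replicate 2. The counts behind these values were 44 to 122 at P4 and 0 to 39 at P8. Its log2 fold changes did not pass the test, at -2.75 in the wild type (SE 0.80, edgeR adjusted p = 0.0786) and -1.64 in Kir2.1 (SE 0.70, edgeR adjusted p = 0.136). The Kir2.1 value passed with no filter on low counts, with only the Kir2.1 libraries in the fit and without wild-type P8 replicate 1. With 1 library left out the wild-type value ran from -3.67 (without wild-type P8 replicate 2) to -1.83 (without wild-type P4 replicate 1), and it passed the test in DESeq2, with no filter on low counts, and on leaving out either replicate 2 of wild-type P4 or replicate 1 of wild-type P8. Markers of the oligodendrocyte lineage, 7 genes of which 4 passed the filter, summed to 32.0 to 44.7 CPM at P4 and 42.2 to 57.7 CPM at P8.

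Sox2 (ENSMUSG00000074637, chromosome 3, 34650405 to 34652461, plus strand) encodes a transcription factor that holds progenitors in their state and stays on in Mueller glia and some amacrine cells. Its level was 44.1 and 29.1 CPM in the wild-type P4 libraries, 47.2, 48.0 and 45.1 CPM in the Kir2.1 P4 libraries, 23.4, 23.3 and 17.6 CPM in the wild-type P8 libraries and 21.5, 13.2 and 16.96 CPM in the Kir2.1 P8 libraries. The ages did not overlap, and the 3 Kir2.1 P4 libraries lay within 3 CPM of each other. Sox2 fell by 1.44 on the log2 scale in Kir2.1 (SE 0.21, edgeR adjusted p = 0.000849). The wild-type value was -0.77 (SE 0.23, edgeR adjusted p = 0.0802). It was -0.45 on leaving out replicate 1 of wild-type P4, and -1.04 and past the test on leaving out replicate 2. Sox2 lies inside Sox2ot, a long noncoding transcript on the same strand with 251 to 868 counts per library. Reads that fall on both genes may have been set aside as ambiguous by the authors' counting, and so be missing from the Sox2 counts.

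Between the genotypes at P4, none of the 9 genes passed the test and none of the 18188 genes did (edgeR, 0% called). At an unadjusted p under 0.05, 2 of the 9 were higher in Kir2.1, Notch1 and Dll1, beside 2.5% of all genes in that direction. DESeq2 called 0 of the 9 and 19 of all genes. The log2 fold changes of all 9 were above 0, from 0.10 for Olig2 to 0.58 for Notch1, with a median of 0.35 beside 0.01 over all genes, 51.3% of which had that sign. Notch1 was 0.58 higher (95% interval 0.02 to 1.14, edgeR adjusted p = 0.678) and Dll1 0.43 higher (95% interval 0.01 to 0.85, edgeR adjusted p = 0.682). On leaving out replicate 2 of wild-type P4 they were at 0.21 and 0.14, and on leaving out replicate 1 at 1.06 and 0.80. Hes5 differed by 0.36 (95% interval -0.16 to 0.88), and Hey1 by 0.41 (95% interval -0.10 to 0.93). The genotypes' ranges were apart for Hey1 and Sox2, 2 of 9, against 12.4% of all genes with Kir2.1 higher.

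This shared sign was lost without wild-type P4 replicate 2 or without Kir2.1 P4 replicate 1. The first was the lowest of the 5 P4 libraries for 9 of 9 genes. Without it, 5 of the 9 were above 0 and 4 below, with a median of 0.04, and without wild-type P4 replicate 1 the median was 0.77. Without Kir2.1 P4 replicate 1, Neurog2 and Olig2 were below 0 and the other 7 above, with a median of 0.35. The low sum of dividing-cell markers in wild-type P4 replicate 2, 1040 CPM, was given above. Over all P4 libraries those markers had a median log2 fold change of 0.39 between the genotypes, and 0 of 12 passed the test. Ganglion cell markers summed to 1262 and 907 CPM in the wild-type and 595, 213 and 650 CPM in the Kir2.1 P4 libraries, with a median of -1.32 and 0 of 10 past the test. Markers of bipolar, starburst amacrine and endothelial cells had medians of -1.44, -2.54 and -1.21. Medians of the remaining lists ran from -0.31 for rods to 0.97 for lens. Bipolar markers summed to 388 CPM in wild-type P4 replicate 2 and to 143 to 198 CPM in the other P4 libraries. The part of these cell types in the values of the 9 genes was not tested.

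Between the genotypes at P8, none of the 9 genes passed the test and none of all genes did (edgeR, 0% called). At an unadjusted p under 0.05, 1 of the 9 was lower in Kir2.1, Neurog2, beside 3.93% of all genes in that direction. DESeq2 called 0 of the 9 and 1 of all genes. The Neurog2 libraries read 21.3, 13.3 and 12.04 CPM in the wild type and 11.1, 8.24 and 8.12 CPM in Kir2.1, a log2 fold change of -0.76 (95% interval -1.40 to -0.12, edgeR adjusted p = 0.699). Its ranges were apart, 1 of 9, against 5.11% of all genes with Kir2.1 lower. Without wild-type P8 replicate 1 its log2 fold change was -0.47, and with Kir2.1 P8 replicate 2 left out none of the 9 passed either. The fold changes of the other 8 ran from -0.31 for Sox2 to 1.21 for Olig2. Olig2 was at 0.65 without wild-type P8 replicate 1, which had no Olig2 count, and at 2.13 without wild-type P8 replicate 2. Intervals were narrowest for Dll1 (-0.47 to 0.29), Sox2 (-0.77 to 0.14), Hey1 (-0.57 to 0.37) and Hes5 (-0.40 to 0.56), and widest for Olig2 (-0.46 to 2.90).

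Hes6 at P8 gave different answers in the 2 sources. In the counts its log2 fold change was 0.32 (SE 0.30, edgeR adjusted p = 0.789), and without wild-type P8 replicate 3 it was 0.83 (edgeR adjusted p = 0.0643). In the authors' deposited table of the P8 comparison it was 0.81 with a standard error of 0.22 and an adjusted p of 0.00786, and 7.27% of the genes with an adjusted p in that table were under 0.05. Hes6 was the 1 of the 9 genes past that threshold in the authors' deposited table for P8. There Neurog2 stood at -0.91 (adjusted p = 0.0754) and Notch1 at 0.45 (adjusted p = 0.121). In the authors' deposited table for P4, where 2.27% of genes were under 0.05, none of the 9 was, and Hes6 came nearest at 0.50 (adjusted p = 0.205). Which libraries entered the authors' deposited tables is not given in the sources used here. For P8, the mean scaled count of Ptf1a there is 0, while wild-type P8 replicate 3 had 1 Ptf1a count. A mean of 0 leaves no room for that count, so this library appears to be absent from the authors' P8 values.

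**Figure D3:**
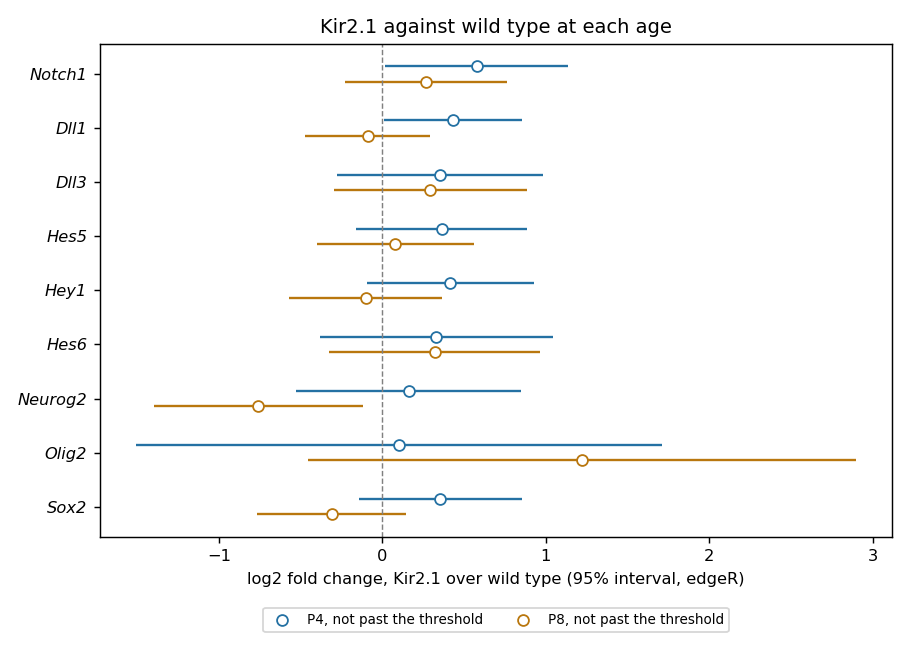
Log2 fold change of each gene in Kir2.1 over wild type with its 95% interval from edgeR, at P4 (blue) and P8 (orange). All 18 points are open because none has an adjusted p under 0.05; the 9 blue points are above 0, and the orange points of Dll1, Hey1, Neurog2 and Sox2 are below it.

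The difference between the genotype effects at the 2 ages, which equals the difference between the age effects in the 2 genotypes, did not pass the test for any of the 9 genes or for any of all genes (edgeR, 0% called). At an unadjusted p under 0.05, 0 of the 9 and 3.09% of all genes were counted, and DESeq2 called 0 of both. The larger number of genes past the test in Kir2.1 than in the wild type was not matched by a tested difference in the age effect. The values nearest to it were Sox2 at -0.67 (95% interval -1.34 to 0.0071, unadjusted p = 0.0521), Neurog2 at -0.92 (95% interval -1.86 to 0.02, unadjusted p = 0.055) and Dll1 at -0.52 (95% interval -1.09 to 0.05, unadjusted p = 0.0684), each with an edgeR adjusted p of 0.9998. All 3 moved with the wild-type P4 pair, to -0.40, -0.55 and -0.23 on leaving out its replicate 2 and to -0.99, -1.42 and -0.89 on leaving out its replicate 1. Hes6 stood at -0.01 (95% interval -0.97 to 0.95) and Dll3 at -0.06 (95% interval -0.92 to 0.80). Of the 9, 8 were below 0, all but Olig2, and without wild-type P4 replicate 2, 4 were.

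The rest of the pathway was read from 4 lists. Of 40 further Notch receptors, ligands and regulators, 39 were tested, and from P4 to P8 in the wild type 2 fell and none rose, near the 4.39% of all genes that passed the test there. They were Lfng, a sugar transferase that modifies Notch receptors, at -1.67 (SE 0.26, edgeR adjusted p = 0.00336), and Nrarp, a feedback inhibitor that Notch switches on, at -1.54 (SE 0.25, edgeR adjusted p = 0.00413). In Kir2.1, 6 fell and 2 rose, beside 16.7% of all genes past the test and 8.73% as lower, and nothing particular to the list is read from these counts. Lfng fell by 1.97 and Nrarp by 1.76, and Notch2, a second receptor, fell by 0.92 (SE 0.19, edgeR adjusted p = 0.0062). Dtx4, a ubiquitin ligase of the Deltex family, fell by 0.80. Jag1, a Jagged ligand, rose by 1.38 (SE 0.25, edgeR adjusted p = 0.00313), with 9.66 and 15.7 CPM in wild-type P4, 16.6, 8.44 and 14.3 CPM in Kir2.1 P4, 21.8, 23.4 and 26.1 CPM in wild-type P8 and 38.9, 31.9 and 31.0 CPM in Kir2.1 P8 libraries. Its P8 libraries were all above its P4 libraries, the opposite order to Dll1 and Dll3. Neurl1a, a ubiquitin ligase that acts on ligands, rose by 1.19. Wild-type values for Jag1 were 0.90 (edgeR adjusted p = 0.0985) and for Notch2 -0.75 (edgeR adjusted p = 0.0656). On leaving out replicate 1 of wild-type P4 they were 0.59 and -0.41, and on leaving out replicate 2 both were farther from 0 and past the test.

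Rbpj, Dll4 and Notch3 did not pass the test in either genotype. Rbpj, the DNA-binding partner of Notch, was at -0.27 in the wild type and -0.17 in Kir2.1 (edgeR adjusted p = 0.336 and 0.436), with 41.0 to 61.8 CPM over all libraries. Dll4, the ligand of sprouting vessels and of young photoreceptors, was at -0.10 and -0.14 (edgeR adjusted p = 0.923 and 0.845). Notch3, a receptor of vessel mural cells, was at -0.81 and -1.12 (edgeR adjusted p = 0.286 and 0.0512). In Kir2.1, Notch3 passed the test as lower in 9 of the 17 alternatives, among them the DESeq2 test, no filter on low counts, only the compared libraries and the replicate block. The list's median was -0.05 in the wild type and -0.10 in Kir2.1, beside 0.03 and 0.0046 over all genes.

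Among 14 other Hes, Hey, Id and Tle genes, 13 were tested, and 2 fell in the wild type and 5 in Kir2.1, where 1 rose, beside 3.58% and 8.73% of all genes called as lower. Heyl, a repressor that Notch switches on, fell by 2.54 in the wild type (SE 0.28, edgeR adjusted p = 0.000309) and by 2.55 in Kir2.1 (SE 0.25, edgeR adjusted p = 0.000104). It read 39.8 and 27.5 CPM in wild-type P4, 44.5, 66.1 and 43.0 CPM in Kir2.1 P4, 5.86, 4.34 and 7.08 CPM in wild-type P8 and 8.03, 10.96 and 7.32 CPM in Kir2.1 P8 libraries, a wide gap between the ages. Hes1, the other main Hes repressor of progenitors, fell by 1.79 in Kir2.1 (SE 0.38, edgeR adjusted p = 0.00716) and stood at -1.47 in the wild type (SE 0.41, edgeR adjusted p = 0.0672). Its wild-type value was -0.76 on leaving out replicate 1 of wild-type P4, and -1.94 and past the test on leaving out replicate 2. Tle3, a co-repressor of Hes proteins, fell by 0.74 and 1.02, and Hey2 fell by 1.18 in Kir2.1. Tle2, a co-repressor too, rose by 1.58 in Kir2.1. The list's medians were -0.52 and -0.82, beside 0.03 and 0.0046 over all genes.

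Of 18 other proneural and neuronal bHLH factors and partners, 13 were tested. In the wild type 2 fell and 1 rose, and in Kir2.1 3 fell and 4 rose, beside 4.39% and 16.7% of all genes past the test in either direction. Ptf1a, which directs amacrine and horizontal cells, passed the test as lower in both. It had 53 and 10 counts in wild-type P4 and 29, 14 and 36 in Kir2.1 P4, then 0, 0 and 1 in wild-type P8 and 0, 0 and 0 in Kir2.1 P8, where it was at least 8.35-fold lower (against a floor of 3 counts per library). Tcf3, a partner of bHLH factors, fell by 0.88 in Kir2.1.

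Neurod4, found in young photoreceptors and interneurons, rose by 1.03 in the wild type (SE 0.26, edgeR adjusted p = 0.0449) and by 0.72 in Kir2.1 (SE 0.23, edgeR adjusted p = 0.0473). Neurod1, a photoreceptor factor, rose by 1.18 in Kir2.1 (SE 0.28, edgeR adjusted p = 0.0123) and stood at 0.98 in the wild type (edgeR adjusted p = 0.107). Its wild-type value was 0.45 on leaving out replicate 3 of wild-type P8, and 1.23 and past the test on leaving out replicate 1. Insm1 rose by 1.40 in Kir2.1. Bhlhe23, a factor of rod bipolar cells, passed as higher in Kir2.1, with 0 and 41 counts in wild-type P4, 0, 4 and 0 in Kir2.1 P4, 59, 134 and 270 in wild-type P8 and 235, 172 and 149 in Kir2.1 P8. Rod markers rose in Kir2.1 too, 12 of 12 with a median of 3.34, and 0 of 12 passed in the wild type, with a median of 2.20. Atoh7, the factor of ganglion cell birth, had 13 and 2 counts in wild-type P4, 9, 18 and 6 in Kir2.1 P4, 0, 1 and 0 in wild-type P8 and 5, 2 and 1 in Kir2.1 P8, and did not pass (edgeR adjusted p = 0.108 and 0.206).

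Of 22 other retinal progenitor factors, all tested, 10 fell and none rose in the wild type, and 15 fell and 1 rose in Kir2.1, with medians of -0.57 and -1.10. Over all genes 3.58% and 8.73% were called as lower, and the medians were 0.03 and 0.0046. Fgf15 fell by 4.52 and 3.63, Foxn4 by 4.21 and 3.82, and Ccnd1, the cyclin D1 of dividing progenitors, by 2.98 and 3.26. Without wild-type P4 replicate 1 the wild-type values were -3.36 for Fgf15 and -2.93 for Foxn4, which turns their order between the genotypes. Sfrp2, a secreted Wnt modulator, fell by 2.25 in the wild type and 1.91 in Kir2.1, and Nr2e1 by 2.01 and 2.06. For Sfrp2 the wild-type value was -1.48 on leaving out replicate 1 of wild-type P4. Sox9, shared by progenitors and Mueller glia, fell by 1.37 in Kir2.1 (SE 0.28, edgeR adjusted p = 0.00574) and stood at -1.12 in the wild type (edgeR adjusted p = 0.0584), with -0.70 and -1.44 on leaving out replicate 1 or 2 of wild-type P4, the latter past the test. Between the genotypes and for the difference of their effects, no gene of the 4 lists passed the test (edgeR, 0% called). At P4, 21 of the 22 progenitor factors had a log2 fold change above 0, with a median of 0.38, beside 51.3% of all genes with that sign and a median of 0.01. Wild-type P4 replicate 2 was the lowest P4 library here too for Ccnd1 (336 CPM), Foxn4 (12.9 CPM) and Fgf15 (12.7 CPM). Genes given above for Kir2.1 alone had wild-type values of the same sign that did not pass the test in the fit of all libraries. These were Dtx4 at -0.47, Neurl1a at 0.79, Hey2 at -0.77, Tle2 at 1.24, Tcf3 at -0.54 and Insm1 at 0.98. With 1 library left out, Dtx4 ran from -0.71 to -0.24, Neurl1a from 0.42 to 1.27 and Hey2 from -1.04 to -0.43. Tle2 ran from 0.81 to 1.55, Tcf3 from -0.77 to -0.27 and Insm1 from 0.23 to 1.36. Tle2 and Insm1 passed without wild-type P8 replicate 1, and all but Hey2 passed with no filter on low counts. The difference between the genotypes in these falls and rises passed for none of them. Several calls rested on single libraries. Without wild-type P4 replicate 1, Lfng, Nrarp, Tle3, Ptf1a and Sfrp2 lost their wild-type call, and Ptf1a also without wild-type P8 replicate 2. With only the wild-type libraries in the fit these 5 and Neurod4 lost it. Neurod4 lost its call in both genotypes without either wild-type P4 replicate, Kir2.1 P4 replicate 1 or 3, or Kir2.1 P8 replicate 1 or 2, and in the wild type also without wild-type P8 replicate 3. The replicate block ended the Neurod4 call in both genotypes as well. With single Kir2.1 libraries left out, Insm1 and Dtx4 lost theirs in Kir2.1 (edgeR adjusted p up to 0.103 and 0.111), as did Hey2 and Neurod1 (up to 0.0882 and 0.0588).

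**Figure D4:**
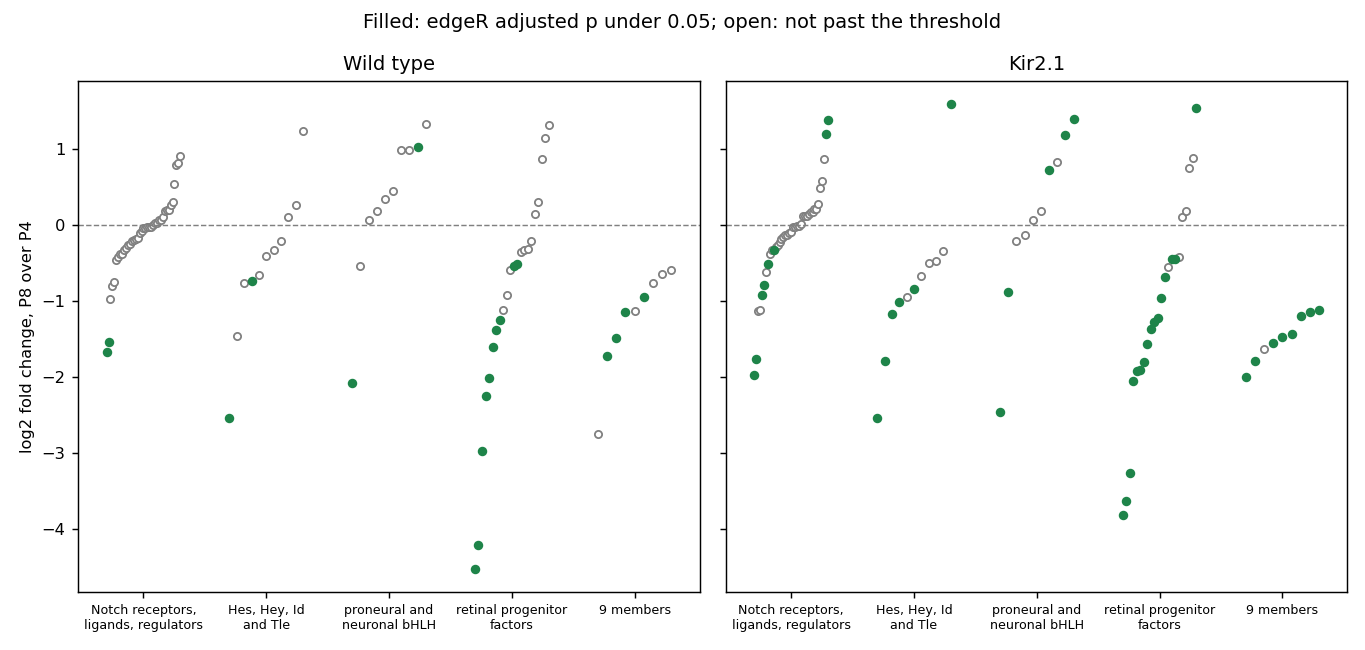
Log2 fold change from P4 to P8 of each gene in the 4 lists and of the 9 genes, in order within a list, for the wild type (left) and Kir2.1 (right). Filled points have an edgeR adjusted p under 0.05. Genes under a mean of 1 CPM, Ptf1a and Bhlhe23 are not drawn. The 9 genes lie below 0 in both panels, while each of the other lists has points on both sides of it.

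The genes most like each of the 9 across the 11 libraries were found by the root mean square difference of log2 CPM scaled to mean 0 and SD 1 per gene, among 12225 genes with a mean of at least 5 CPM. Both ages enter this measure, so a low value can reflect a like difference between P4 and P8. Closest of all was Chst3 to Notch1, at 0.074, followed for Notch1 by Gli3 at 0.0925 and Spata13 at 0.102. For Hes5 they were Cenpi at 0.0964, Spc25 at 0.101 and Lmnb1 at 0.107, and the first 2 encode proteins of the kinetochore. For Dll1 they were Sipa1l1 at 0.102, Rrm1 at 0.114 and Nes at 0.118. Rrm1 is a subunit of ribonucleotide reductase and Nes is nestin. The nearest gene was Gpc3 for Hes6 (0.162), Fam111a for Sox2 (0.150), 2900026A02Rik for Dll3 (0.133), Fads2 for Neurog2 (0.183), Ski for Hey1 (0.227) and Rasa4 for Olig2 (0.250). Among the 9 themselves the closest pairs were Dll1 with Hes5 (0.177), Dll3 with Notch1 (0.192) and Notch1 with Hes5 (0.205), and the farthest was Neurog2 with Olig2 (1.06).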

How the data were processed

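RNA-seq of 11 mouse retinal libraries was analysed from the deposited count tables. Per the submitters' processing notes, the authors used cutadapt 1.18, STAR 2.5.0c, SAMtools 1.9, bedtools 2.26.0, HTSeq 0.6.1 and DESeq2 with build mm10, and the deposited counts are whole numbers per Ensembl gene. Strand and multi-mapping settings are not given in the sources used here. Records that name no gene stayed out of library sizes and tests. The authors' deposited tables of Kir2.1 against wild type hold, per the file headers, a mean scaled count (a signal), a log2 fold change, its standard error, a score that is their ratio, and p-values before and after adjustment. They are quoted as the authors' own.

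Groups came from the titles. Symbols matched 46488 of the 47069 genes and GENCODE release 21 (GRCm38) 46574 of them, and 10535 genes had no count. edgeR 4.0.16 in R 4.3.3 fitted 4 group means to all 11 libraries by quasi-likelihood after filterByExpr and TMM scaling (factors 0.964 to 1.05), so that groups share an estimate of the spread (7 residual degrees of freedom). p-values were adjusted by Benjamini-Hochberg over 18188 genes, with a threshold of 0.05. Standard errors were derived from the F statistic. The script was tested on simulated data.

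The 9 genes, the lists and the tests were chosen with earlier results of these data known. All 9 were named, with 12 fixed genes of the lists, some of which are not reported here. Up to 4 further genes each way per list and comparison were named, those with the largest fold change among genes past the threshold with a mean of at least 1 CPM. For each of the 9 the 3 nearest genes were sought. The alternatives were DESeq2 1.42.0 size factors, the DESeq2 test, no filter, removal of genes above 1% of a library, only the libraries compared, the replicate number as a block and leaving out each library. Cell type markers served only to check the tissue and to stand beside results.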

Additional observations from a re-analysis of the deposited data

How the results depend on the processing

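The fold changes of the 9 genes kept their direction from P4 to P8 in both genotypes under each alternative run. DESeq2 size factors and removal of genes above 1% of a library changed no call among them. In the wild type, where 4 of the 9 and 798 of all genes were called, the DESeq2 test gave 7 and 1432, no filter 7 and 2058, and only the compared libraries 0 and 113. Leaving out 1 library gave 1 to 7 of the 9 and 163 to 1339 of all genes. In Kir2.1, where 8 of the 9 and 3029 of all genes were called, the DESeq2 test gave 8 and 3583, no filter 9 and 3661, and only the compared libraries 9 and 4264. Leaving out 1 library there gave 7 to 9 of the 9 and 1764 to 3676 of all genes. Between the genotypes at P4, no filter called 1 of the 9 (Notch1, 0.57, edgeR adjusted p = 0.0217) and 339 of all genes, the DESeq2 test 19 of all genes, and leaving out 1 library 0 to 6. At P8 no filter called 447 of all genes, the DESeq2 test 1, and leaving out 1 library 0 to 219. For the difference of the genotype effects no filter called 136 of all genes and leaving out 1 library 0 to 1. Signs turned with 1 library left out for values that were not called. At P4 the ranges were -0.21 to 0.66 for Neurog2, -0.46 to 1.02 for Olig2, -0.0042 to 0.77 for Hes6 and -0.079 to 0.998 for Hes5. At P8 Hey1 ran from -0.27 to 0.11. For the age effect Dll4 ran from -0.49 to 0.18 in the wild type and from -0.33 to 0.12 in Kir2.1. For the difference of effects the ranges were -0.45 to 0.50 for Hes6, -0.46 to 0.25 for Dll3, -0.79 to 0.0505 for Notch1 and -0.92 to 0.16 for Hes5. With the replicate block Hes6 turned to 0.12 in that difference, 3 of the 9 were called in the wild type (without Dll3) with 558 of all genes, and 8 with 2928 of all genes in Kir2.1. Deviations of same-numbered libraries correlated at -0.0757 to 0.139, not every pair above 0.1, so the numbers were not taken to pair the libraries. As a hint from the data, 6 of 6 Kir2.1 libraries correlated best with their own number across the ages (0.0483, 0.139 and 0.129), and 2 of 6 P8 libraries did across the genotypes. Where a group kept 1 library, that library was taken to vary like the other groups. Causes were not tested.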

Other observations

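Among the named genes of the pathway lists, the authors' deposited tables hold further genotype differences under an adjusted p of 0.05. At P4, where 2.27% of genes were under 0.05, the authors' deposited table gives Foxn4, a factor of amacrine and horizontal cell progenitors, at a log2 fold change of 1.33 in Kir2.1 over wild type (adjusted p = 0.00106). Hes1 stood at 0.99 (adjusted p = 0.0111) and Ccnd1 at 0.77 (adjusted p = 0.00167) in the authors' deposited table for this age. From the counts of all 11 libraries the same comparison gave 0.17 for Foxn4, 0.53 for Hes1 and 0.45 for Ccnd1, with edgeR adjusted p of 0.933, 0.789 and 0.72. These values depend on the wild-type P4 pair, which had 582 and 152 counts of Foxn4, 759 and 337 of Hes1 and 7757 and 3970 of Ccnd1. The Kir2.1 P4 libraries had 453, 432 and 351 counts of Foxn4, 959, 800 and 588 of Hes1 and 7653, 9787 and 6670 of Ccnd1. Values with 1 library left out were not computed for them.

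At P8, where 7.27% of genes were under 0.05, the authors' deposited table gives Insm1 at 1.57, Neurod1 at 1.04 (both adjusted p = 8.01e-07) and Bhlhe23 at 1.13 (adjusted p = 0.0401). Neurod4 stands at 0.44 (adjusted p = 0.139) and Neurog2 at -0.91 (adjusted p = 0.0754) in the authors' deposited table for P8. From the counts of all libraries, Insm1 was at 0.84 (95% interval -0.01 to 1.69), Neurod1 at 0.54 (95% interval -0.06 to 1.13) and Bhlhe23 at 0.38 (95% interval -1.16 to 1.93), none past the edgeR threshold. Wild-type P8 replicate 3 is part of these values, and none was computed without it. Insm1 had 405, 1002 and 2288 counts in the wild-type and 2298, 1767 and 1995 in the Kir2.1 P8 libraries. In the counts the wild-type P8 libraries of Neurod1 read 176, 239 and 478 CPM and the Kir2.1 P8 libraries 471, 422 and 402 CPM, so that wild-type replicate 3 lay above the Kir2.1 libraries and the other wild-type libraries below them. Rod markers in the same libraries summed to 927, 3638 and 7911 CPM and to 7524, 7416 and 7676 CPM. Their part in these values was not tested.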
